A study of Mus musculus with 2 samples.

Results

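Mature neutrophils from the omentum, a fatty fold of the mouse peritoneum with small lymphoid aggregates, were studied in WT and in *Postn*-DTR mice. The series holds 2 droplet-based single-cell RNA libraries on the Chromium platform, 1 per genotype, both from tissue collected on day 5 after intraperitoneal diphtheria toxin. *Postn*-DTR mice are heterozygous for a diphtheria toxin receptor placed in the first coding exon of *Postn*, so that cells with an active *Postn* promoter are the ones that the toxin can kill. WT mice received the same toxin. Each library pools several mice, so there is 1 sample per group, no test between the genotypes was possible, and the intervals below cover counting error only.

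A cell was taken as a mature neutrophil when it had 200 to 7500 detected genes, *S100a8* and *Csf3r* above 0, *Cxcr2* or *Il1r2* above 0, a summed level of the secondary granule transcripts *Ltf*, *Camp* and *Ngp* below 50 and of the primary granule transcripts *Elane*, *Mpo* and *Prtn3* below 20, and a *Jchain* value below 3.93 on the natural log scale. Levels are mean UMIs (unique molecular identifiers, 1 per captured transcript) per 10000 UMIs of a cell. This rule took 58 of 8680 WT cells and 416 of 5734 *Postn*-DTR cells, 474 of 14414 in all. The members were thus chosen by measured values of *S100a8*, *Csf3r*, *Cxcr2*, *Il1r2*, *Jchain* and the granule transcripts. The levels of these genes are given as a description.

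Neutrophils are made in the bone marrow and pass through stages that are marked by their granules. Precursors transcribe the genes of primary granules, such as *Mpo* and *Elane*. Immature cells then transcribe those of secondary granules, such as *Ltf* and *Camp*, and later those of tertiary granules, such as *Mmp9*. Mature cells silence most granule genes, carry CXCR2, a receptor for chemokines that draw neutrophils out of the marrow and into tissue, and respond to G-CSF through CSF3R. IL1R2, also on their surface, is a decoy receptor that binds IL-1 without signalling. In the blood and in tissues mature neutrophils live for a short time, and they respond strongly to interferons, glucocorticoids and microbial products.

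The cell type name was checked against markers. *Retnlg*, a resistin-like secreted protein of mature neutrophils that the rule did not read, stood at 252 in WT and 388 in *Postn*-DTR members, against 0.196 and 0.324 in T cells of the same libraries. Immature neutrophils, defined below, also held it, at 180 in WT and 258 in *Postn*-DTR. It thus checks that members are neutrophils and not that they are mature. Most of the other neutrophil markers are genes of the rule and check nothing. The 10 compared genes that stood highest in members over all other cells of the same library were *Ifitm1*, *Csf3r*, *Il1b*, *Cxcr2*, *Arg2*, *Il1r2*, *Hcar2*, *H2-Q10*, *Sirpb1b* and *Stfa2l1*, of which *Csf3r*, *Cxcr2* and *Il1r2* were placed there by the rule. *Ifitm1* led with a log2 ratio of 6.32 in the library where it was lower, and *Arg2*, which encodes the mitochondrial arginase, had 5.19. No marker of erythroid cells was detected. The median member held 3669 UMIs in WT and 2788 in *Postn*-DTR. The libraries shared 65 barcodes, none of them between members, and *Postn* itself had 0 UMIs in the members of both.

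Some members also held transcripts of other cell types, and more so in WT. Members with 5 or more UMIs of B cell, T cell, monocyte, macrophage or dendritic cell markers are called mixed below. They were 18 of 58 in WT (31.0%, exact Clopper-Pearson interval 19.5% to 44.5%) and 28 of 416 in *Postn*-DTR (6.73%, 4.52% to 9.58%). Of the 18 in WT, monocyte markers led in 7, B cell markers in 5, T cell markers in 5 and dendritic cell markers in 1. Mixed members were deep, with a median of 12208 UMIs in WT and 10268 in *Postn*-DTR, and they held 66.8% of the members' UMIs in WT against 23.2% in *Postn*-DTR. Without them the B cell marker sum went from 3.90 to 0.261 in WT and from 1.01 to 0.142 in *Postn*-DTR, and the T cell marker sum from 1.76 to 0.0350 and from 0.279 to 0.0931. The monocyte marker sum fell less, from 10.5 to 5.73 in WT and from 5.92 to 4.34 in *Postn*-DTR. Most of what stayed was *Ly6c2*, at 5.11 and 3.11, which was not counted toward the 5 UMIs and stood at 14.1 and 12.2 in immature neutrophils. Of the other monocyte markers *Ccr2*, *F13a1* and *Ms4a4c* had 0 UMIs in the unmixed WT members. The doublet caller Scrublet marked 0 of the 18 mixed WT members and 9 of the 28 in *Postn*-DTR. Counts over the main gene lists are therefore given with and without the mixed members, and levels of single genes without them unless all members are named, which leaves 40 WT and 388 *Postn*-DTR cells with median depths of 3095 and 2662 UMIs.

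Mature neutrophils made up a larger share of the *Postn*-DTR library. They were 0.668% of the WT cells (exact interval 0.508% to 0.863%) and 7.26% of the *Postn*-DTR cells (6.60% to 7.96%), a ratio of 10.9 (approximate Katz interval 8.27 to 14.3). Without mixed members the shares were 0.461% and 6.77%, a ratio of 14.7. A further 14 WT and 32 *Postn*-DTR cells met all other limits but had neither *Cxcr2* nor *Il1r2*, and were left out. *Il1r2* was higher in *Postn*-DTR members, and how far the receptor limit moved the ratio was not tested. Immature neutrophils, the cells with *S100a8* and *Csf3r* that met the primary granule and *Jchain* limits but had a secondary granule sum of at least 50, were 2.02% and 4.24%, a ratio of 2.10 (1.74 to 2.55). Granulocyte precursors, the *S100a8* and *Csf3r* cells with a primary granule sum of at least 20, were 0.737% and 2.04%, a ratio of 2.77 (2.04 to 3.75). The intervals of the immature cells and the precursors overlapped, and that of the mature cells lay above both.

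Mature cells were thus also a larger part of the neutrophils. Of mature and immature cells together they were 24.9% in WT (58 of 233, 19.5% to 31.0%) and 63.1% in *Postn*-DTR (416 of 659, 59.3% to 66.8%). Without mixed cells the shares were 19.9% and 62.5%. The size of this difference depended on depth: with every cell thinned to 1000 UMIs before the rule was applied, mature neutrophils were 0.269% and 4.65% of the cells and the ratio of mature among neutrophils was 1.96 (1.42 to 2.71) in place of 2.54. Among cells with at most 8000 UMIs that ratio was 1.46 (1.17 to 1.82), since immature cells were deep (median 12035 UMIs in WT and 6435 in *Postn*-DTR). Shares of a library have a common denominator, and more neutrophils cannot be told apart from fewer of the other cells.

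**Figure D1:**
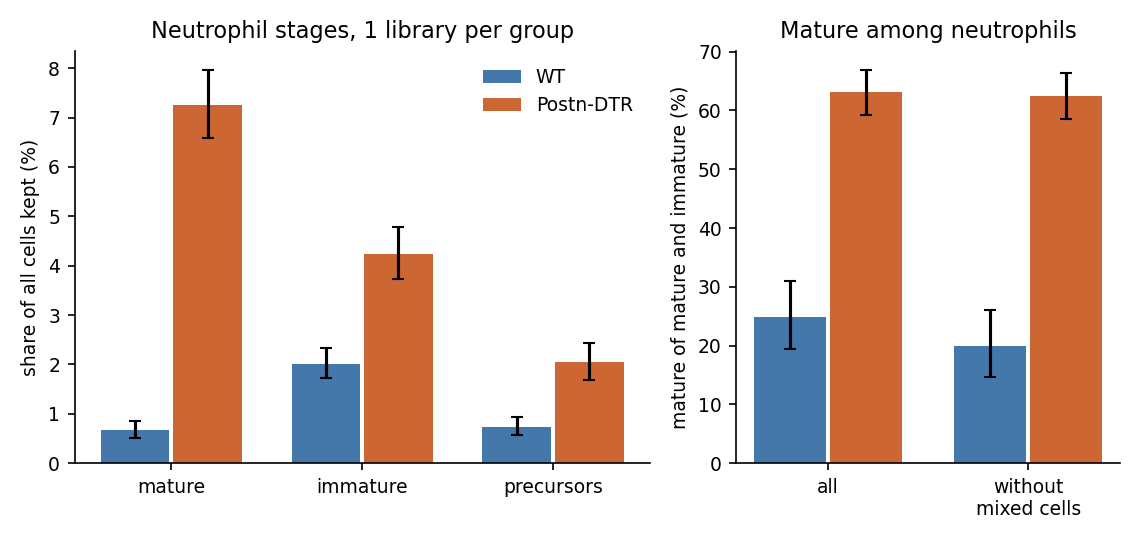
Left, mature neutrophils, immature neutrophils and granulocyte precursors as a percent of all cells kept in the WT (blue) and *Postn*-DTR (orange) library. Right, mature cells as a percent of mature and immature neutrophils, with all cells and without mixed cells. Bars are the single library of each group and error bars exact 95% counting intervals. Mature neutrophils go from 0.668% to 7.26%, the largest step of the 3 stages shown.

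Few cells lay close to the cut between mature and immature cells, but the sums ran on across it without a clear gap. The highest member's secondary granule sum was 45.9 in WT and 48.9 in *Postn*-DTR, and the lowest immature cell had 52.3 and 50.5. Between 40 and 50 lay 1 WT and 11 *Postn*-DTR members, and between 50 and 60 lay 3 and 5 immature cells. Members with no secondary granule transcript at all were 29 of 58 in WT (50%, 36.6% to 63.4%) and 255 of 416 in *Postn*-DTR (61.3%, 56.4% to 66.0%), a ratio of 1.23 whose counting interval of 0.94 to 1.6 includes 1.

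Other genes were followed along the secondary granule sum. In unmixed WT cells *Retnlg* was 75.6 at a sum of 500 and over, 489 from 50 to below 500, 522 from 10 to below 50 and 174 at a sum of 0. In *Postn*-DTR the same bands gave 64.8, 484, 615 and 308. *Retnlg* thus peaked between the immature cells and the cells with no granule transcript in either library. *Il1b*, the inflammatory cytokine interleukin-1β, went from 1.03 to 7.30, 36.1 and 118 over these bands in WT and from 1.08 to 11.6, 33.8 and 101 in *Postn*-DTR. *Mmp8*, neutrophil collagenase, went from 10.5 to 30.8, 20.9 and 1.94 in WT and from 8.22 to 22.3, 20.7 and 7.09 in *Postn*-DTR.

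Of 2299 genes with a mean of both libraries of at least 0.5, 121 (5.26%) were at least 2-fold higher and 127 (5.52%) at least 2-fold lower in *Postn*-DTR members, on ratios with 0.05 added to each level, 1122 (48.8%) had a ratio above 0, and the median log2 ratio over all genes was -0.01. Without mixed members 2168 genes were compared, of which 147 (6.78%) were higher, 118 (5.44%) lower and 1141 (52.6%) above 0, with a median of 0.03. Log2 ratios below are of these levels, *Postn*-DTR over WT, and the counting interval beside one is the exact 95% interval of the log2 ratio of the summed UMIs, which weights deep cells more and need not be centred on it. Of the 121 genes higher in all members 97 stayed at least 2-fold higher without mixed cells, whereas of the 127 lower genes 68 did and 29 had the opposite sign. Among unmixed members the exact counting interval of the summed UMIs lay on one side of 0 for 123 of the 147 higher and 66 of the 118 lower genes, and lay wholly beyond 2-fold for 32 and 13. A gene past 2-fold is thus often a matter of few UMIs in the 40 WT cells.

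**Figure D2:**
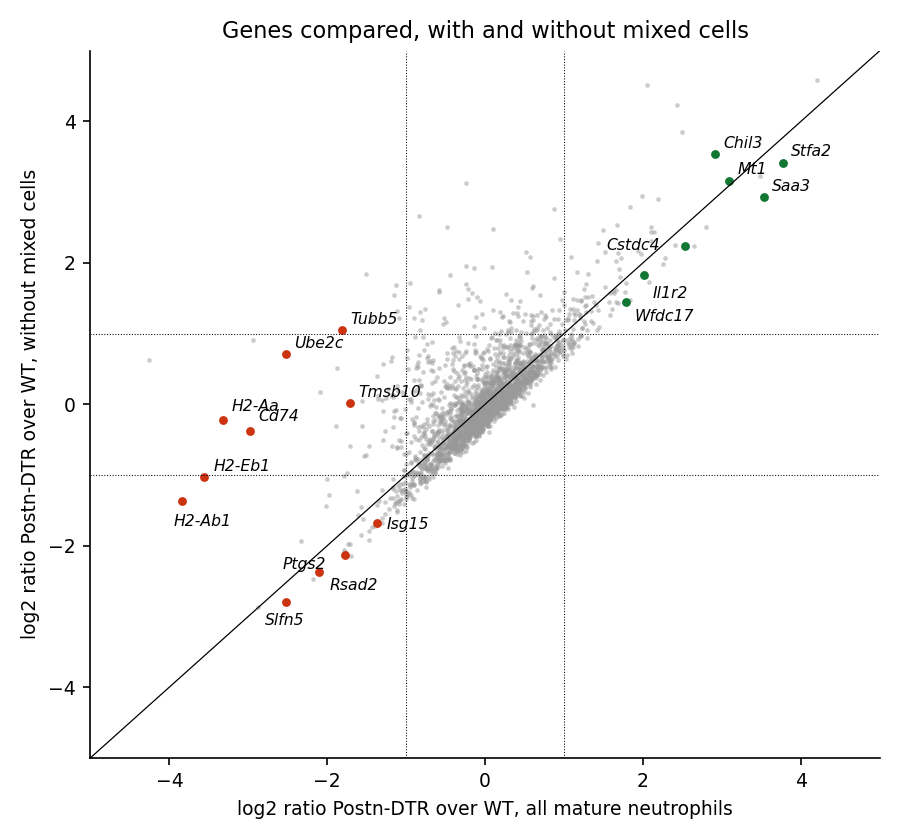
Each point is a compared gene, with the log2 ratio of *Postn*-DTR over WT in all mature neutrophils on the x axis and without mixed cells on the y axis. Dotted lines mark 2-fold and the solid line equality. *H2-Aa*, *Cd74*, *Tmsb10*, *Ube2c* and *Tubb5* are low on the x axis only, whereas *Slfn5*, *Rsad2*, *Ptgs2* and *Isg15* are low on both axes and *Stfa2*, *Chil3* and *Mt1* high on both.

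The lowest ratios in all members belonged to genes of antigen presentation, and these ratios shrank without the mixed cells. *H2-Aa*, *H2-Ab1* and *H2-Eb1*, which encode chains of MHC class II, stood at 8.94, 5.29 and 5.64 in WT and at 0.848, 0.323 and 0.431 in *Postn*-DTR members, log2 ratios of -3.32, -3.84 and -3.57. *Cd74*, the invariant chain, stood at 27.4 and 3.44. A single WT cell held 272 of the 698 *H2-Aa* UMIs of WT members. Without mixed cells *H2-Aa* stood at 0.123 and 0.0985 and *Cd74* at 1.09 and 0.824, the latter with a log2 ratio of -0.38. *H2-Ab1* stood at 0.198 and 0.0463 and *H2-Eb1* at 0.173 and 0.0595, still lower but from 2 WT UMIs each. Their log2 ratios of summed UMIs were -1.63 (interval -4.24 to 1.76) and -1.95 (-4.76 to 1.51), and that of *H2-Aa*, also from 2 WT UMIs, was -0.63 (-2.86 to 2.60).

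The same held for dividing-cell, thymosin and ribosomal transcripts. Of 5 compared cell cycle genes 4 were at least 2-fold lower in all members, against 5.52% of all genes, with a list median of -1.81. Among them were *Ube2c* at 1.04 and 0.140, *Stmn1* at 1.04 and 0.274 and *Tubb5* at 2.13 and 0.571. Without mixed cells *Hmgb2* alone was still compared, at 11.7 and 12.5. *Tmsb10*, a thymosin that binds actin monomers, went from 18.6 and 5.64 in all members to 2.27 and 2.29 without mixed cells. Among the 80 compared cytosolic ribosomal protein genes 14 were at least 2-fold lower in all members, against 5.52% of all genes, and none was higher (median -0.71). Without mixed cells none of 75 was lower and 6 were higher, beside 6.78% of all genes (median 0.35). Of the 17 genes of actin and its partners, *Actb*, *Pfn1*, *Cfl1* and *Coro1a* among them, none but *Tmsb10* passed 2-fold in all members and none did without mixed cells.

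Many interferon-stimulated genes were lower in *Postn*-DTR mature neutrophils, with and without the mixed cells. Of 32 listed genes 30 are in the files. In all members 7 of 17 compared genes of the list were at least 2-fold lower, against 5.52% of all genes, 1 was higher against 5.26%, 4 had a ratio above 0, and the list median was -0.89. Without mixed cells 10 of 19 were at least 2-fold lower, against 5.44%, 1 was higher, against 6.78%, and the median was -1.13. These genes encode proteins that act against viruses, and many carry in their promoters the interferon-stimulated response element, the site at which the interferon-activated factor ISGF3 binds. The promoters of 3 genes that were lower and of *Ifitm1*, which was higher, are shown with the matches to this element (GAAA, any 2 bases, then GAAA, read on both strands, overlapping matches merged) in capitals. They span 250 bases before to 50 bases after the RefSeq gene start on GRCm38.p6.
*Isg15* (chr4:156200769-156201068, minus strand): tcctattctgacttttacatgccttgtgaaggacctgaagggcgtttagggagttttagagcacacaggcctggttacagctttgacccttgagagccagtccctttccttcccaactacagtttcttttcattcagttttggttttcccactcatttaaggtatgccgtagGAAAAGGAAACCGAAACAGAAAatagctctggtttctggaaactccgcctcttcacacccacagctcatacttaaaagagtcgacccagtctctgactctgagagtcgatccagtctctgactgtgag
*Rsad2* (chr12:26456403-26456702, minus strand): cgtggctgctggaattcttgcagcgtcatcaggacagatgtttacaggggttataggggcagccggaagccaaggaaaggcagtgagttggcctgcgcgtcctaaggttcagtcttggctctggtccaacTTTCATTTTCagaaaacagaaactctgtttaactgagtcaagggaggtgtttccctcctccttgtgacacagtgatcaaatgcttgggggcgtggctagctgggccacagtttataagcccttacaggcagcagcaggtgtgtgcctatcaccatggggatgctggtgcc
*Slfn5* (chr11:82951852-82952151, plus strand): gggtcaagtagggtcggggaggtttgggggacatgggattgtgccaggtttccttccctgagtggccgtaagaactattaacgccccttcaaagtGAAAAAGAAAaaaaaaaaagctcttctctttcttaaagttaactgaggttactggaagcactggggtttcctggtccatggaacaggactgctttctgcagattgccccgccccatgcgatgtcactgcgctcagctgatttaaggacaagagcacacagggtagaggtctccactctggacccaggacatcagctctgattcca
*Ifitm1* (chr7:140967826-140968125, plus strand): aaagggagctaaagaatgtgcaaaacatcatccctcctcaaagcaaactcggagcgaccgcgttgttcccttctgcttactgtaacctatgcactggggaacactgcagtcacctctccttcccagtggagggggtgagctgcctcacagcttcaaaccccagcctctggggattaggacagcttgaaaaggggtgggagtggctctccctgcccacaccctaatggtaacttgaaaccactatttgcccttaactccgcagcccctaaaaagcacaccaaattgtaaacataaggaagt

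The element was found in 6 of the 8 promoters available among the 10 lower genes (*Isg15*, *Rsad2*, *Oas3*, *Ifitm3*, *Gbp2* and *Slfn5*), in 1 of 7 among the other 9 (*Ifitm2*) and in 943 of 27025 promoters in all (3.49%). The *Isg15* promoter held 3 overlapping matches, *Rsad2* and *Slfn5* 1 each, and *Ifitm1* none in this window. *Oasl1* and *Slfn4*, which were also lower, held none either. The list was made up of interferon-stimulated genes and was split by the ratios of these same data. Whether the element goes with the direction of a gene was not tested.

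*Isg15*, a ubiquitin-like modifier, stood at 4.56 in WT and 1.73 in *Postn*-DTR members, and at 5.96 and 1.83 without mixed cells (log2 ratio -1.67, counting interval of the summed UMIs -2.04 to -1.20). In the median unmixed cell its level was 2.53 in WT and 0 in *Postn*-DTR, where the upper quartile was also 0. *Ifi27l2a*, a small interferon-induced membrane protein, was the most abundant of the genes that were at least 2-fold lower apart from *Ifitm3*, at 11.1 and 2.58 without mixed cells (-2.09, interval -2.45 to -1.90). *Rsad2*, which encodes the antiviral enzyme viperin, stood at 2.12 and 0.371 (-2.37), and *Slfn5*, of the Schlafen family, at 1.67 and 0.197 (-2.80, interval -3.84 to -1.72), its 16 WT UMIs coming from 6 cells. *Oas3*, a sensor of double-stranded RNA, stood at 2.83 and 0.897, *Rtp4* at 3.94 and 1.49 and *Slfn4* at 7.98 and 3.37. The counting interval of each gene named so far in this paragraph lay below 0. *Oasl1*, at 0.998 and 0.280, and *Gbp2*, at 0.782 and 0.320, completed the lower genes with *Ifitm3*, and the interval of *Gbp2* included 0.

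The *Ifitm* genes, which encode membrane proteins that hinder virus entry, did not move as 1 group. *Ifitm3* was 24.9 and 12.7 in all members and 27.4 and 12.4 without mixed cells (-1.13, interval -1.32 to -0.99). *Ifitm1* was the opposite, at 26 and 65.7 in all members and 30.8 and 69.6 without mixed cells (1.17, interval 0.99 to 1.28), with a median cell at 16.4 in WT and 55.1 in *Postn*-DTR. *Ifitm2* stood at 41.4 and 54.9 and *Ifitm6* at 12.3 and 14.7 without mixed cells. All 4 lie on chromosome 7.

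The sum over the whole list was not lower, at 164 in unmixed WT and 173 in unmixed *Postn*-DTR members, because the *Ifitm* genes are the most abundant in it. Summed over the 26 measured genes of the list other than the *Ifitm* genes, a split made after the values were seen, the level was 52.1 in unmixed WT and 21.6 in unmixed *Postn*-DTR members. The quartiles over cells were 24.0, 42.2 and 72.2 in WT and 8.37, 15.9 and 28.7 in *Postn*-DTR, so that the upper quartile in *Postn*-DTR lay below the WT median. The sum did not come from a few WT cells, since 50% of its UMIs were held by 9 of 40 cells in WT and 73 of 388 in *Postn*-DTR. In members with no secondary granule UMI it was 61.2 and 21.3, and in those with some it was 41.0 and 22.1. In unmixed immature cells the order was the opposite: there the sum was 11.3 in WT and 16.2 in *Postn*-DTR, and in T cells it was 15.1 and 10.7. In the immature cells the median log2 ratio of the 19 genes was 0.29, and in T cells -0.17, beside -1.13 in mature cells. The difference between these classes was not tested.

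**Figure D3:**
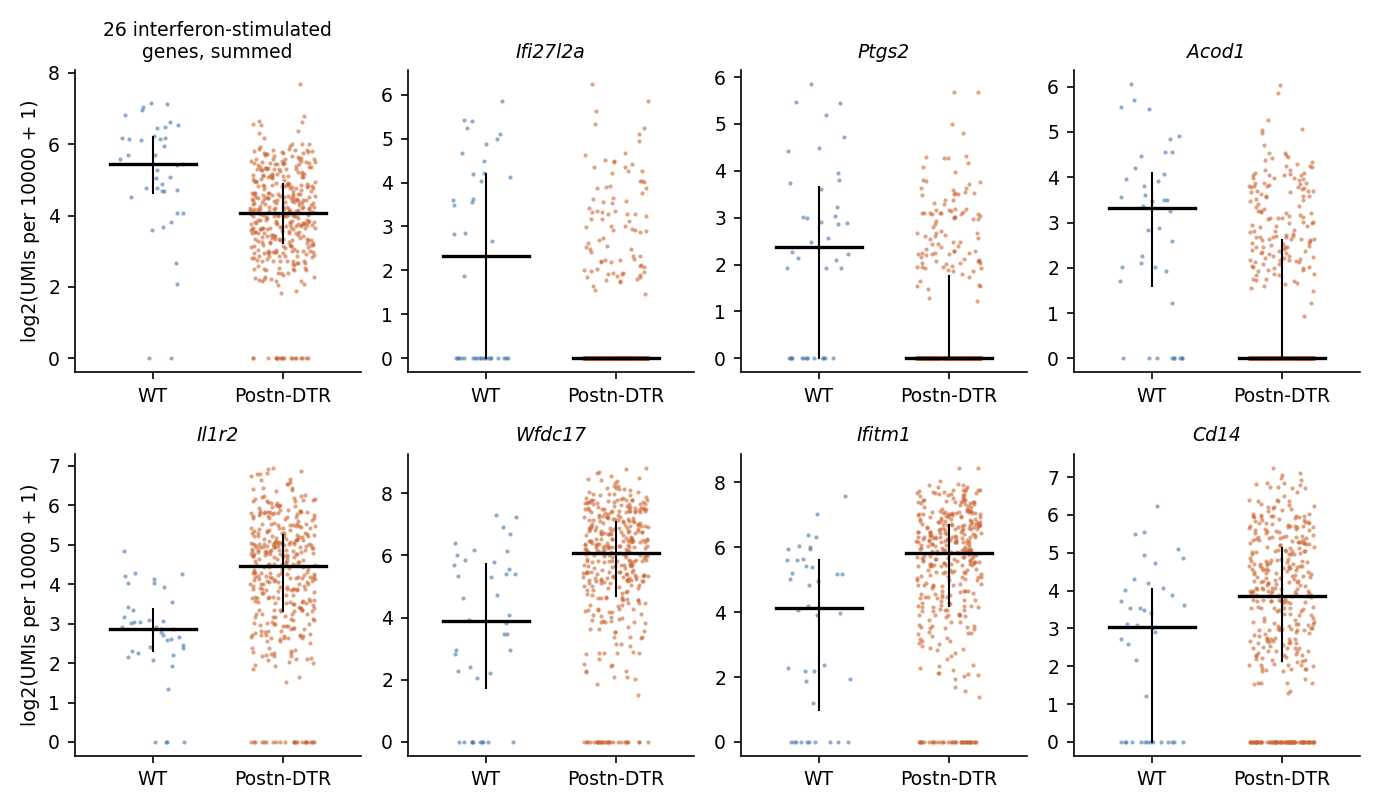
Each point is 1 mature neutrophil without the mixed cells, 40 in WT and 388 in *Postn*-DTR, plotted as log2 of its UMIs per 10000 plus 1. Horizontal bars are medians and vertical lines the quartiles over cells. The 26 summed interferon-stimulated genes, *Ifi27l2a*, *Ptgs2* and *Acod1* lie lower in *Postn*-DTR, and *Il1r2*, *Wfdc17*, *Ifitm1* and *Cd14* lie higher.

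The highest ratios included a gene cluster on chromosome 16, the stefin A group, which encodes cytosolic inhibitors of cysteine proteases such as cathepsins. *Stfa2*, *Cstdc5* and *Cstdc4* were among the 10 highest ratios, and the group was then examined whole, after its values had been seen. The 9 listed genes whose names begin with Stfa, Csta or Cstdc lie between 36156811 and 36455392 (GRCm38, GENCODE). The 5 that reached the minimum level share a run of 13 bases just before their start, which is in capitals below in 4 of them and occurs in 8 of all 27025 promoters, 7 of these in genes of this group by name and the other in *Gm7260*.
*Stfa2* (chr16:36408314-36408613, minus strand): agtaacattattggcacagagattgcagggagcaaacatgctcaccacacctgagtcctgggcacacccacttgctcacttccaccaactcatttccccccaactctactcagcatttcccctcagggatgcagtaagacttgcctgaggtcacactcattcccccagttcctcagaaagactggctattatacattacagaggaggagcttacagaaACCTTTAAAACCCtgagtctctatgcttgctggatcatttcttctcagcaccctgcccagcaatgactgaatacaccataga
*Stfa2l1* (chr16:36156561-36156860, plus strand): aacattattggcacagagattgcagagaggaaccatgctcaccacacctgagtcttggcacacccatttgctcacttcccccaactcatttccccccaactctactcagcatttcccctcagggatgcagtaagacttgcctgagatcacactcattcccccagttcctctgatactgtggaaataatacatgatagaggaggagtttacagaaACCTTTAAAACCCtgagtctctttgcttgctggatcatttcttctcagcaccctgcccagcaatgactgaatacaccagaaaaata
*Cstdc4* (chr16:36183962-36184261, plus strand): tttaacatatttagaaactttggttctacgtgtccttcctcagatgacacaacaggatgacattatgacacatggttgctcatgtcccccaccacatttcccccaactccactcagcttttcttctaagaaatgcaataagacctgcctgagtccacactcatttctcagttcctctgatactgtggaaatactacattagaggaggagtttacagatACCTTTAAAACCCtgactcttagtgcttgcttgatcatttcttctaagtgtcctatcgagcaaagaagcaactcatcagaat
*Cstdc5* (chr16:36367521-36367820, minus strand): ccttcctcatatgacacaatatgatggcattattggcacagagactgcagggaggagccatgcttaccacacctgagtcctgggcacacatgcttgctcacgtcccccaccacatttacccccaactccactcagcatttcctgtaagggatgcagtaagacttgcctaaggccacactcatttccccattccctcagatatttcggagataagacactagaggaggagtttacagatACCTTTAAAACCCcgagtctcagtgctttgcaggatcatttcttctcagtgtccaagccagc

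In *Stfa2* the run began 32 bases before the RefSeq start and in *Stfa2l1* 36 bases before it. At the best ungapped offset the promoters of *Stfa2* and *Stfa2l1* were identical at 79.7% of the overlapping positions and those of *Stfa1* and *Cstdc5* at 79.6%. The transcripts are also alike: of the 60-base windows in the annotated *Cstdc5* transcripts 19.6% occurred letter for letter in *Cstdc6* or *Stfa1*, and of those of *Stfa2* 10.2% in *Stfa2l1*. Reads from such windows could be given to either copy or dropped, so the split of the signal among the copies is uncertain.

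*Stfa2l1* stood at 4.28 in WT and 15.4 in *Postn*-DTR members, and at 5.81 and 16.3 without mixed cells (1.48, interval 1.24 to 1.94). *Cstdc4* stood at 3.08 and 14.7 without mixed cells (2.24, interval 1.90 to 2.84), *Cstdc5* at 0.826 and 4.06, *Stfa1* at 0.813 and 3.21 and *Stfa2* at 0.311 and 3.81 (3.42, interval 2.19 to 4.78). All 5 were thus at least 2-fold higher in *Postn*-DTR with and without mixed cells. The WT UMIs were few and uneven: *Stfa2* had 6, and the 25 of *Cstdc5* came from 1 cell. The other 4 genes of the group had 0 to 2 UMIs in the WT members and 2 to 83 in the *Postn*-DTR members. In immature cells the direction was the same, with *Cstdc4* at 0.0645 and 8.0 and *Stfa2l1* at 0.715 and 8.51, and in T cells all 5 stood below 0.05 in both libraries.

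In the IL-1 pathway the cytokine *Il1b* stood close in both libraries. *Il1r2* stood at 6.32 in WT and 25.6 in *Postn*-DTR members, and at 7.63 and 27.1 without mixed cells. Its median cell was at 6.29 and 21.0, and the WT upper quartile of 9.38 was near the *Postn*-DTR lower quartile of 8.99. Since a member needed *Il1r2* or *Cxcr2*, this is a description. *Il1rap*, the co-receptor that IL-1 receptors share, stood at 0.292 and 1.59 without mixed cells, from 2 WT UMIs (log2 ratio of summed UMIs 3.16, interval 1.28 to 6.22). *Il1b* was at 85.8 and 82.4 (interval -0.01 to 0.18), *Nlrp3*, the sensor of the inflammasome, at 4.0 and 3.07, and *Il1rn*, the receptor antagonist, at 3.15 and 1.95. Leaving out *Il1r2*, 2 of 9 compared genes of this list were at least 2-fold higher in all members (*Il1rap* and *Nlrp12*), against 5.26% of all genes, and none lower, and without mixed cells 1 of 8 was, against 6.78%.

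Among cytokine receptors 3 of 14 were at least 2-fold higher in all members, against 5.26% of all genes, and none lower, and without mixed cells 3 were higher, against 6.78%, and 1 lower. *Il4ra*, the receptor chain for IL-4 and IL-13, stood at 0.647 and 1.96 without mixed cells (1.53, interval 0.65 to 2.89), and *Il6ra* at 0.118 and 1.11, from 2 WT UMIs (log2 ratio of summed UMIs 2.93, interval 1.04 to 5.99). The highest level was that of *Csf3r*, at 20.4 and 16.8, again a gene that the rule reads. *Tnfrsf1a*, the main receptor of TNF, was at 2.30 and 5.00 in all members (1.10) and at 2.70 and 5.18 without mixed cells (0.93). The chains of the interferon-γ receptor went apart without mixed cells, *Ifngr1* at 1.45 and 3.37 and *Ifngr2* at 2.14 and 1.01, while those of the type I interferon receptor stayed close, *Ifnar1* at 0.727 and 0.722 and *Ifnar2* at 1.96 and 1.39.

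Among genes that glucocorticoids induce, *Tsc22d3*, *Fkbp5* and *Mt1* were at least 2-fold higher in *Postn*-DTR. Leaving out *Il1r2*, which the rule reads, they were 3 of 9 compared genes in all members, against 5.26% of all genes, and 3 of 10 without mixed cells, against 6.78%, where 1 gene was lower. The median with *Il1r2* was 0.60 in all members and 0.27 without mixed cells. The WT counts of *Fkbp5* and *Mt1* were very low. *Tsc22d3*, which encodes GILZ, stood at 1.51 and 3.82 without mixed cells (1.31, interval 0.82 to 2.27). *Fkbp5*, a co-chaperone of the glucocorticoid receptor, stood at 0.201 and 1.20 from 2 WT UMIs (log2 ratio of summed UMIs 3.08, interval 1.20 to 6.14), and *Mt1*, a metallothionein, at 0.329 and 3.35 from 3 (3.71, interval 2.15 to 6.0). *Ddit4*, also of the list, went the other way, at 0.953 and 0.227, and *Cebpb* and *Dusp1*, the most abundant, stood at 52.3 and 63.2 and at 27.3 and 21.7. In immature cells and T cells the median of the 11 genes was 0.75 and 0.66, so the median was positive in all 3 classes.

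Genes described in neutrophils of tissues and tumours were on balance lower. In all members 3 of 13 compared genes were at least 2-fold lower, against 5.52% of all genes, 1 was higher and the median was -0.33. Over the alternative settings of the processing this median ran from -0.86 to 0.12, so its direction was not the same in all of them. Without mixed cells 4 of 14 were lower, against 5.44%, 1 was higher and the median was -0.68. *Ptgs2*, the inducible cyclooxygenase of prostaglandin synthesis, stood at 7.02 and 2.02 in all members and at 9.44 and 2.12 without mixed cells (-2.13, interval -2.37 to -1.65). Its median cell was at 4.21 in WT and 0 in *Postn*-DTR. *Hcar2*, a receptor for niacin and ketone bodies, stood at 8.54 and 3.22 without mixed cells (-1.39, interval -1.59 to -0.87). *Csf1* and *Gclm* were the others that were at least 2-fold lower. *Xbp1*, a factor of the unfolded protein response, was the higher one, at 0.704 and 3.32 (2.16, interval 1.39 to 3.61). *Arg2* stood at 3.12 and 5.17 and *Ctsd*, a lysosomal protease and the most abundant gene of the list, at 11.3 and 7.66.

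A few genes outside the lists were picked by no fixed rule after their levels and ratios were seen, so they are a description only. *Acod1*, which makes itaconate, stood at 12.8 and 3.84 without mixed cells (-1.73, interval -1.92 to -1.40) and had a median cell of 8.93 in WT and 0 in *Postn*-DTR. *Lst1*, a leukocyte transcript of the MHC region, stood at 9.08 and 2.27 (-1.98, interval -1.98 to -1.25), and *Basp1* at 2.31 and 0.605. *Wfdc17*, a small secreted protein of myeloid cells, stood at 33.3 and 90.6 (1.44, interval 1.40 to 1.69), with a median cell of 13.7 in WT and 66.0 in *Postn*-DTR. *Rbm3*, an RNA-binding protein induced by cold, stood at 0.916 and 5.30 (2.47, interval 1.81 to 3.67). All 5 differed in the same direction in all members.

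Of the 10 highest ratios in all members that have not been named, *Saa3*, an acute-phase protein, stood at 0.264 and 3.58, *Klhl6* at 0.125 and 0.889, *Cirbp*, like *Rbm3* a cold-inducible RNA-binding protein, at 0.371 and 1.87, and *B4galt3* at 0.237 and 1.22. *Saa3* rested on 3 UMIs from 1 WT cell (log2 ratio of summed UMIs 5.80, interval 4.25 to 8.08). *Chil3*, a chitinase-like protein of secondary granules, stood at 1.0 and 7.85 in all members, where 1 *Postn*-DTR cell held 250 of 2409 UMIs, and at 0.299 and 4.0 without mixed cells (3.54, interval 1.90 to 4.49). Secondary granule transcripts were also higher in *Postn*-DTR T cells, as given below. *Klhl6* had no UMI in the 40 unmixed WT cells. Of the 10 lowest, *Ifi27*, another interferon-induced gene, stood at 2.0 and 0.401 in all members and at 2.33 and 0.379 without mixed cells (-2.47, interval -3.17 to -1.69). *Il2rg*, the receptor chain common to several interleukins, stood at 1.07 and 0.172 and at 0.516 and 0.0979. *Ly6a*, at 1.90 and 0.410, and *Pld4*, at 0.896 and 0.184, stood at 0.202 and 0.234 and at 0.128 and 0.0154 without mixed cells, where their intervals included 0.

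Most granule genes stood within 2-fold, with *Chil3* and *Slc11a1* as the exceptions. With and without mixed cells 1 of 6 compared secondary granule genes, *Chil3*, was at least 2-fold higher and none lower, beside 5.26% and 6.78% of all genes higher. This list includes *Ltf*, *Camp* and *Ngp*, whose sum the rule held below 50 in both libraries, so the likeness of these genes is partly set by the rule. In T cells the summed secondary granule genes stood at 2.75 in WT and 10.2 in *Postn*-DTR, so their transcripts were higher there too. How much of the *Chil3* level in members is such background was not tested. *Lcn2*, lipocalin-2, stood at 38.7 and 46.1 and *Ngp* at 8.29 and 4.83 without mixed cells, the latter a gene of the rule. Of 8 tertiary granule genes 1 was higher, with and without mixed cells, beside the same 5.26% and 6.78%. It was *Slc11a1*, a metal transporter of the phagosome, at 1.04 and 2.48 (1.21, interval 0.77 to 2.57). *Mmp9*, gelatinase B, stood at 19.5 and 13.7, *Padi4*, which citrullinates histones, at 3.85 and 2.23, and *Hp*, haptoglobin, at 24.2 and 34.8. Of the primary granule genes *Srgn* alone was compared, at 73.4 and 90.5.

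Receptors of attachment and chemotaxis did not pass 2-fold in either direction, in 18 compared genes with or without mixed cells. *Cxcr2* stood at 8.40 and 11.4 (a gene of the rule), *Cxcr4*, which holds neutrophils in the marrow, at 2.57 and 1.5, and *Fpr2*, a receptor of formyl peptides, at 1.12 and 2.26 (0.98, interval 0.07 to 1.54). Among receptors for microbial products and immune complexes 3 of 19 were at least 2-fold higher in all members, against 5.26% of all genes, and 2 of 18 without mixed cells, against 6.78%, and none was lower in either. *Cd14*, which hands lipopolysaccharide to TLR4, stood at 9.54 and 22.3 in all members (1.22) and at 11.8 and 23.1 without mixed cells (0.97, interval 0.69 to 1.16). *Tlr4* itself stood at 0.129 and 0.922, from 2 WT UMIs (log2 ratio of summed UMIs 2.60, interval 0.71 to 5.67), and *Clec12a*, an inhibitory lectin, at 0.265 and 1.36 without mixed cells, while *Tlr2* went the other way, at 2.40 and 1.29. *Tyrobp*, the adaptor of many of these receptors and the most abundant of the list, stood at 72.2 and 68.5.

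Of the chemokine ligands *Cxcl2*, which draws neutrophils through CXCR2, stood at 54.5 and 57.7 and *Ccl6* at 37.2 and 53.4 without mixed cells, the latter with an interval of 0.53 to 0.80. *Ccl4* stood at 0.0867 and 3.07, from 2 WT UMIs (log2 ratio of summed UMIs 4.14, interval 2.28 to 7.20). In *Postn*-DTR its upper quartile was 0 and its highest cell at 216, so that few cells held it. It was the 1 of 4 compared ligands that passed 2-fold, beside 6.78% of all genes that were higher without mixed cells.

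Among 22 immediate early genes, which cells switch on within minutes of a stimulus, 1 was at least 2-fold higher and 1 lower in all members, near the 5.26% and 5.52% of all genes, and 3 and 1 without mixed cells, beside 6.78% and 5.44%. *Ier3* stood at 2.19 and 6.04 without mixed cells (1.44, interval 0.93 to 2.10) and *Atf3* at 4.18 and 1.06 (-1.93, interval -2.13 to -0.94). *Jun* was the highest without mixed cells, its 2 WT UMIs coming from 1 cell (log2 ratio of summed UMIs 2.50, interval 0.61 to 5.57), and *Dusp2* at 0.440 and 0.974 had an interval that included 0. *Junb* and *Fos*, among the most abundant, stood at 49.8 and 43.1 and at 23.2 and 17.1.

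In several other lists few genes or none passed 2-fold. Without mixed cells 6.78% of all genes were higher and 5.44% lower. Of 7 subunits of the NADPH oxidase, which makes superoxide, *Cybb* alone passed 2-fold, at 1.14 and 0.486 (-1.15, interval -2.09 to -0.54), but its log2 ratio was 0.75 in unmixed members with no secondary granule UMI. Of 12 glycolysis genes *Aldoa*, aldolase A, alone passed it, at 11.8 and 5.05 (-1.22, interval -1.40 to -0.90), beside *Gapdh* at 11.7 and 7.78 and *Ldha* at 3.81 and 5.43. The S100 proteins of the alarmin calprotectin, *S100a8* and *S100a9*, stood at 677 and 492 and at 1194 and 828, differences under 2-fold in which *S100a8* is a gene of the rule. Survival genes included *Mcl1*, on which neutrophils depend, at 27.4 and 31.0, and none of 10 passed 2-fold without mixed cells. Of 10 transcription factors *Hif1a*, the oxygen-regulated factor, alone passed 2-fold without mixed cells, at 2.63 and 1.21 (-1.08, interval -1.71 to -0.60), while *Spi1* stood at 9.72 and 11.3 and *Stat3* at 2.20 and 3.49. The nuclear RNA *Malat1* stood at 105 and 77.6.

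The medians of these lists stayed nearer to 0 than that of the interferon-stimulated genes. In all members they were 0.69 for the chemokine ligands, 0.45 for the transcription factors, 0.41 for the IL-1 list, 0.37 for the immediate early genes, 0.33 for the cytokine receptors, 0.29 for the pattern, Fc and complement receptors and 0.24 for the tertiary granules. Those of the NADPH oxidase, the actin genes, the survival genes, the adhesion receptors and the secondary granules lay between -0.02 and 0.12, and those of glycolysis and the S100 proteins were -0.11 and -0.24. Several of these lists, the secondary granules among them, include genes that the rule reads. In all members but not without mixed cells 1 survival gene, *Bcl2l11*, was at least 2-fold higher, and *Bhlhe40* of the transcription factors and *S100a10* were lower. Among the 11 compared mitochondrially encoded genes 1 was lower in all members, beside 5.52% of all genes (median -0.59), and of 10 without mixed cells none was (median 0.14). Of the 3 compared nuclear noncoding RNAs *Gas5* alone passed 2-fold, and only without mixed cells (1.03).

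**Figure D4:**
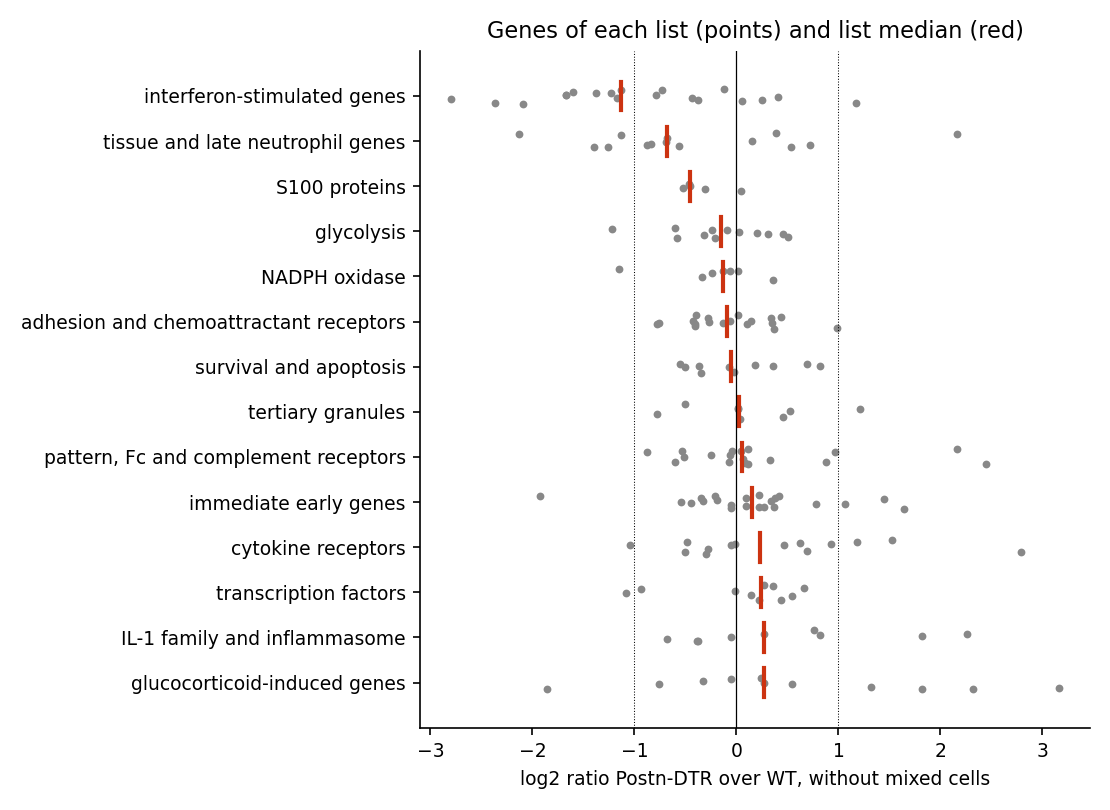
Points are the compared genes of 14 lists, placed by their log2 ratio of *Postn*-DTR over WT without mixed cells, and red bars are list medians. Dotted lines mark 2-fold. The interferon-stimulated genes have the lowest median, -1.13, and the glucocorticoid-induced genes spread from *Ddit4* to *Mt1*.

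The differences were then followed within the members, split at 0 into 22 WT and 233 *Postn*-DTR unmixed cells with no secondary granule UMI and 18 and 155 with some. *Isg15* stood at 8.44 and 2.44 in the first and at 2.92 and 0.925 in the second, log2 ratios of -1.77 and -1.61. *Il1r2* gave 1.79 and 1.80, *Xbp1* 2.15 and 2.07 and *Aldoa* -1.16 and -1.26, so that these genes differed by about the same amount at both stages. *Hcar2* stood at 14 and 4.13 in the cells without granule transcripts and at 1.87 and 1.86 in the others. *Cstdc4* was past 2-fold in both, with a log2 ratio of 1.23 in the first and 5.45 in the second, where WT stood at 0.366 and *Postn*-DTR at 18.1. *Wfdc17* gave 1.11 and 2.25. *Stfa2l1* gave 0.84 and 3.16, so it stayed under 2-fold in the cells without granule transcripts. *Cxcr4*, close over all members, stood at 4.05 and 1.89 in the cells without granule transcripts and at 0.760 and 0.901 in the others. None of these differences between stages was tested, and the WT groups hold 22 and 18 cells. Cells with no secondary granule UMI were also shallower, with a median of 2695 UMIs in WT and 2303 in *Postn*-DTR. Those with a sum above 0 and below 10 had 3769 and 3052.5, and those from 10 to below 50 had 4027 and 3283. Depth and stage thus cannot be told apart in this split.

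**Figure D5:**
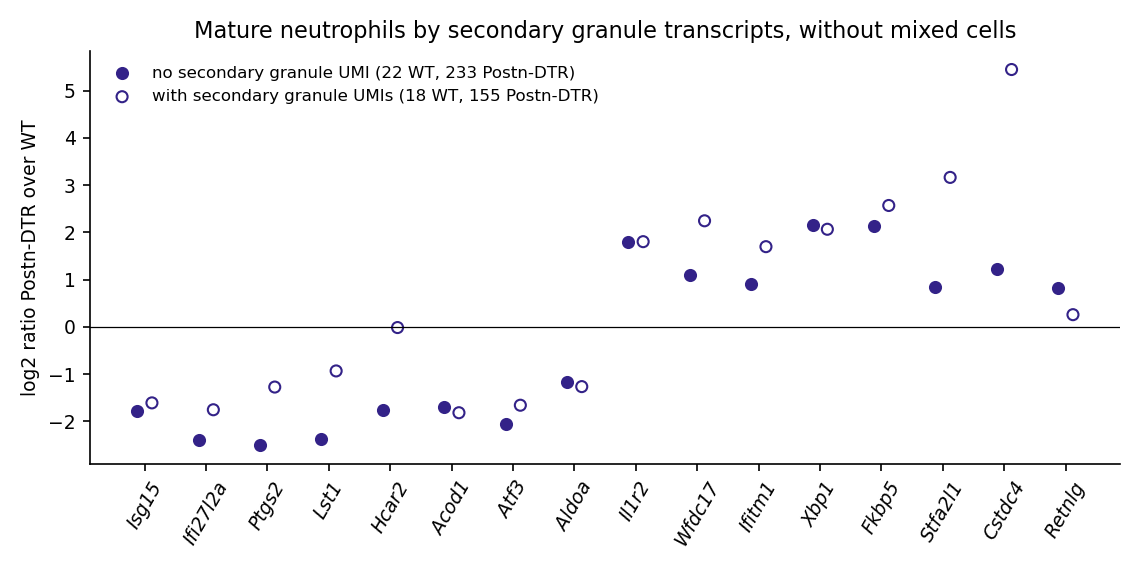
Log2 ratio of *Postn*-DTR over WT for 16 genes in mature neutrophils without mixed cells, for cells with no UMI of *Ltf*, *Camp* or *Ngp* (filled) and with some (open). *Isg15*, *Il1r2*, *Xbp1* and *Aldoa* have nearly the same ratio in both, *Hcar2* is past 2-fold lower in the first and near 0 in the second, and *Cstdc4* is highest in the second.

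Immunoglobulin transcripts, which neutrophils do not make, were present at low levels and were higher in *Postn*-DTR members. Without mixed cells *Igkc* stood at 0.395 and 6.40 and *Ighm* at 1.93 and 7.98. The plasma cell marker sum was 4.85 and 18.7 in all members, 3.41 and 18.2 without mixed cells, and 5.66 and 11.4 in T cells. A cell type that should lack these transcripts thus held them in the same order, but with a smaller step between the libraries. *Igkc* stood at 1.13 and 3.76 in T cells. Of the genes at least 2-fold higher, 11 of 121 in all members and 11 of 147 without mixed cells were immunoglobulin or T cell receptor genes. Scaling to totals without immunoglobulin, mitochondrial and ribosomal protein genes gave 123 higher and 164 lower genes, with all 127 of the lower ones kept. In the same way neutrophil transcripts were higher in T cells of the *Postn*-DTR library (6 summed markers at 3.24 and 15.2), a level far below the 1785 and 1683 in members.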

How the data were processed

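Omental cells of WT and *Postn*-DTR mice were profiled in 2 libraries. The submitters' processing notes give Cell Ranger 6.0.0 and mm10. The labels give a 5′ kit and the methods of the study a 3′ kit and an older Cell Ranger. The authors deposited natural log values, the natural log of 1 plus UMIs scaled to 10000 per cell, to 3 decimals. Comparison of summed counts had been planned. Because the unit is a log value, the level of a gene is the mean of back-transformed values, and UMIs, recovered from each cell's smallest step and whole within 0.1 UMI for 99.95% of WT and 99.89% of *Postn*-DTR values, gave an alternative and the exact 95% conditional binomial intervals. Libraries held 8686 and 5736 barcodes and 80175389 and 81027370 UMIs in the cells kept, with a median of 5618 and 8456 UMIs per cell. Intervals cover counting error only. With 1 library per group no test was made, and genes are described by a 2-fold limit after adding 0.05, among genes with a mean of both libraries of at least 0.5.

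Named genes are those of the gene lists, the 10 highest and 10 lowest ratios (leaving out immunoglobulin, T cell receptor and mitochondrial genes and genes with most UMIs of the higher library in 1 cell) and the 10 that stood highest over other cells. Examples in lists of more than 6 measured genes were the extremes and the most abundant gene, and further list members are named for their role. The members and lists were chosen with earlier results of these data known, and the mixed-cell limit, the stefin A group and the genes said to be picked later were chosen after values were seen. Doublets were called with Scrublet in scanpy 1.11.5 (97 WT and 110 *Postn*-DTR cells) and removed only in an alternative. T cells, used for background, had *Cd3e*, *Cd3d* or *Cd3g* beside it, and neither *Csf3r* nor *Cd79a*. The fold limit was tried on simulated cells drawn from 1 pooled profile with set changes. These had no mixed cells and no spread between cells beyond counting and depth, so the trial does not cover those sources of error. Of 19960 listed genes 19932 were found in the reference names, which filled 1060 blank symbols. Promoters are from RefSeq (GRCm38.p6). Scripts ran under Python 3.11.15 with NumPy 2.4.6 and SciPy 1.17.1.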

Additional observations from a re-analysis of the deposited data

Results flagged for a closer look

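*Ifi27l2a* stood out because its difference between the genotypes had opposite directions at 2 stages. Without mixed cells its log2 ratio of *Postn*-DTR over WT was -2.09 in mature neutrophils, with levels of 11.1 and 2.58, and 1.54 in immature neutrophils, with levels of 0.636 and 1.94. Both stages come from the same 2 libraries, and the difference between the stages was not tested. It was the only gene of the lists to pass 2-fold in opposite directions at a mean level of at least 0.5 in both stages.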

How the results depend on the processing

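No paired analysis was possible because each group has 1 library. The ratio of shares was 15.7 of cells under the *Jchain* limit, 17.3 after thinning to 1000 UMIs and 14.7 without mixed members, beside 10.9, and that of mature among neutrophils was 1.96 after thinning and 1.46 at up to 8000 UMIs, beside 2.54. Genes at least 2-fold higher and lower numbered 54 and 48 with 0.5 added, 210 and 277 with members thinned, 255 and 358 at a minimum mean of 0.2, 33 and 32 at 2, 674 and 1171 with no minimum, and 229 and 287 in unmixed members without secondary granule UMIs, beside 121 and 127. Summed UMIs as CPM gave 139 and 222, a split of 38.5% higher against 48.8%. Some log2 ratios changed sign, and the cause was not tested. With both receptors required *Stmn1* was 0.087 and *Ube2c* 0.96. With mixed members removed the cell cycle median was 0.51, the ribosomal median 0.37, *Ly6a* 0.17, *Tmsb10* 0.015, *Tuba1b* 0.51, *Tubb5* 1.05 and *Ube2c* 0.71. With members of 2 or more other-cell UMIs removed the cell cycle median was 0.45, the ribosomal median 0.40, *Ly6a* 0.16, *Pld4* 0.23, *S100a10* 0.71, *Tuba1b* 0.45, *Tubb5* 0.85 and *Ube2c* 0.61. At up to 8000 UMIs *Tubb5* was 0.051 and *Ube2c* 0.76. In unmixed members without secondary granule UMIs the noncoding RNA median was -0.35, the cell cycle median 0.63, the ribosomal median 0.27, *Cybb* 0.75, *Il2rg* 1.90, *Ly6a* 0.60, *Tmsb10* 1.27, *Tuba1b* 0.63, *Tubb5* 0.92 and *Ube2c* 1.05. The settings with mixed members removed, at most 8000 UMIs or no secondary granule UMI were chosen after seeing the data. In these medians every gene compared among all members is kept, so the cell cycle and ribosomal values differ from those over the genes compared without mixed cells. Of 1241 values of single genes 975 moved by less than the counting error of the main setting, and of 391 list medians 374 moved by less than 1.5-fold. The sign changes above are 22 of genes at least 2-fold apart in the main setting and 7 of list medians at least 0.2 from 0 in both settings. Smaller values that changed sign were not counted. Examples are *Il1b* (0.26, from -0.23 to 0.91 over the settings) and the immediate early median (0.37, from -0.16 to 0.58). With 40 unmixed WT cells, low genes are the least certain.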
